A study of Mus musculus with 4 samples.

Results

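The nuclear genes of oxidative phosphorylation encode most subunits of the respiratory chain and of ATP synthase, and they were followed here in single-nucleus RNA sequencing of mouse hippocampus. Members were all genes with a symbol beginning Ndufa, Ndufb, Ndufc, Ndufs, Ndufv, Sdh (Sdha to Sdhd), Uqcr, Cox4i to Cox8 (structural subunits) or Atp5 that had at least 50 unique molecular identifiers (UMIs, 1 per captured transcript) over the 4 libraries. This gave 89 of 27998 genes: 36 of complex I, 4 of complex II, 8 of complex III, 17 of complex IV, 15 of complex V, the 7 complex I assembly factors Ndufaf1 to Ndufaf7, and Atp5s and Atp5sl, which carry the stem without being counted as subunits. Ndufa4 and its paralogue Ndufa4l2 were placed with complex IV, where the NDUFA4 protein is found. Cox8b, with 37 UMIs, and Cox8c, with 0, did not reach the minimum.

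Hippocampi of B6 mice aged 9 months were pooled within a genotype, and each genotype gave 1 library. The groups were wild type (WT, 7 hippocampi), mice without Apoe (EKO, 7), mice carrying the human tau transgene P301S with Apoe intact (P301S, 8), and P301S mice without Apoe (P301S/EKO, 7). The tau line and the promoter that drives it are not named in the labels, and the further genotypes among the 6 of the design text were not analysed here. With 1 library per genotype no test was possible: every interval below is a 95% interval of counting error alone, and a difference between libraries cannot be told apart from a difference between genotypes.

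Complexes I to IV carry electrons from NADH and succinate to oxygen, complexes I, III and IV pump protons across the inner mitochondrial membrane, and complex V (ATP synthase) uses the proton gradient to make ATP. A small set of core subunits is encoded by mitochondrial DNA and transcribed inside the organelle, outside the nucleus, while the rest is transcribed in the nucleus, translated in the cytosol and imported. Neurons depend on this pathway for the cost of synaptic and action potential signalling, and complex IV has alternative subunit isoforms that differ between tissues.

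The promoters of the members are shown because the transcription factors NRF1, the ETS factor GABP and YY1 are known regulators of this gene group. RefSeq (GRCm38.p6) held a promoter window of 300 bases for 71 of the 89 members, and the first listed window of each gene was read on both strands. The NRF1 letters (GCGCA, any base, GCGC) stood in 18 of the 71 (25.4%) against 4.78% of all 27025 promoter windows, the ETS letters CCGGAAG in 16 (22.5%) against 9.12%, and the YY1 letters AAGATGGC in 8 (11.3%) against 2.88%. The ERR letters TCAAGGTCA were in 2 (2.82% against 0.407%), GGGCGG in 31 (43.7% against 35.9%) and CCAAT in 32 (45.1% against 37.9%). At least 1 of the first 3 motifs was found in 37 windows and none in 34. A match is a run of letters, not a shown binding site.

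Written 5′ to 3′ with NRF1, ETS and YY1 letters in capitals, the windows of the genes on which the results below turn are as follows. Cox6a1 (chr5:115348909-115349208, minus strand) encodes the broadly used isoform of a complex IV subunit and holds 2 NRF1 matches and 1 ETS match. Cox6b1 (chr7:30626065-30626364, minus strand) and Cox6b2 (chr7:4753045-4753344, minus strand) encode the somatic and the testis isoform of another complex IV subunit, and only the Cox6b1 window has a match. Atp5e (chr2:174464052-174464351, minus strand) encodes the epsilon subunit of ATP synthase and has 1 ETS match, and Ndufaf4 (chr4:24897833-24898132, plus strand) an assembly factor of complex I, with 1 NRF1 match.
Cox6a1: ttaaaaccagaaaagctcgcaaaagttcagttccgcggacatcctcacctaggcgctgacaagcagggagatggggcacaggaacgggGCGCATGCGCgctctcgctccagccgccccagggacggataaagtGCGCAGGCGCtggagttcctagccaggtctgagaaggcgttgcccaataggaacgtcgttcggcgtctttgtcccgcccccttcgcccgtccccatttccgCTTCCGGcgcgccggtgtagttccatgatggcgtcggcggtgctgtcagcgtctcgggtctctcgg
Cox6b1: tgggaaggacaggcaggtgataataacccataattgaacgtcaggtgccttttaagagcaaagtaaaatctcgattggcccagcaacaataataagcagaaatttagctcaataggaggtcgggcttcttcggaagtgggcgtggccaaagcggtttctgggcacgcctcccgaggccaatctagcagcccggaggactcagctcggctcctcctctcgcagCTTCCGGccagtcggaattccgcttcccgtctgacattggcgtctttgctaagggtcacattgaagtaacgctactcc
Cox6b2: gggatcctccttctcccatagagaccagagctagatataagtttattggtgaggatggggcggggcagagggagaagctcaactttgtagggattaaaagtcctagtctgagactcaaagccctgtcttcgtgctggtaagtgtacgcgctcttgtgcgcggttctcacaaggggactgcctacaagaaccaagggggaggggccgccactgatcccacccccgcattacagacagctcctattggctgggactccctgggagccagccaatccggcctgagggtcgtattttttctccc
Atp5e: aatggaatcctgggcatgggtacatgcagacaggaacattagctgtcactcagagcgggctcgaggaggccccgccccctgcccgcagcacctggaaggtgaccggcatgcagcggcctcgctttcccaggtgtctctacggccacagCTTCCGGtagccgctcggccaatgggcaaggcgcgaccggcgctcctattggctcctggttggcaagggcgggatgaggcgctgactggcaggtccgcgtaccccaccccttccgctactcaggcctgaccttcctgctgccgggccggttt
Ndufaf4: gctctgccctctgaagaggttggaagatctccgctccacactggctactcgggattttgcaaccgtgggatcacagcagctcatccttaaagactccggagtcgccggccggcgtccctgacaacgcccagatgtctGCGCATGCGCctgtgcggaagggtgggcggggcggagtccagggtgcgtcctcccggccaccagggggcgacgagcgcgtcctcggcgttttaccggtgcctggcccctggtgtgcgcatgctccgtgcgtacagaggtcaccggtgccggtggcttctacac
The 89 members lie on 19 chromosomes, with 3 on X.

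The libraries held 6145 (WT), 5982 (EKO), 3156 (P301S) and 6767 (P301S/EKO) barcodes with 14251675, 10283013, 8369762 and 11358953 UMIs and medians of 1901, 1443.5, 2152.5 and 1394 UMIs. Requiring 200 genes or more, a mitochondrial share of 5% or less and no call as a likely doublet left 5263, 5222, 2865 and 5327 nuclei. Apoe, the lipid carrier that the EKO mice lack, was at 1935 and 6403 UMIs per 1000000 UMIs (CPM) in WT and P301S and at 16.3 and 19.9 CPM in EKO and P301S/EKO, in the direction of the labels. Prnp stood at 374 (WT), 440 (EKO), 617 (P301S) and 739 CPM (P301S/EKO), and Mapt, the mouse tau gene, at 160, 157, 254 and 208 CPM. Library pairs shared between 19 and 69 barcode sequences, at most 1.15% of a library. Barcodes above 5% mitochondrial UMIs made up 10.4% (WT), 8.71% (EKO), 7.03% (P301S) and 17.6% (P301S/EKO).

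Summed over all kept nuclei, the members took 7470 CPM (WT), 6152 CPM (EKO), 7490 CPM (P301S) and 7785 CPM (P301S/EKO). EKO was thus the lowest library and P301S/EKO the highest, and the EKO sum was 0.824 times the WT sum (0.815 to 0.832). The mitochondrial share of UMIs in the same nuclei was 1.094%, 0.767%, 1.098% and 1.38% in the same order, and the share of cytosolic ribosomal protein transcripts 0.947%, 0.772%, 1.12% and 0.953%. Per nucleus this was 17.2, 10.5, 19.6 and 13.1 member UMIs, values that also follow depth. A sum over all nuclei mixes classes of nuclei in the shares each library holds, so fewer nuclei of a class and less RNA per nucleus cannot be told apart in it. Many of these genes have processed pseudogenes, and how reads shared with them were counted is not given in the sources used here. Mitochondrial UMIs per member UMI ran from 1.25 in EKO to 1.77 in P301S/EKO, with 1.47 in both WT and P301S, so the organelle transcripts differed more between libraries than the nuclear members did.

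The comparison of EKO with WT asks what loss of Apoe does without the tau transgene. The ratio was below 1 for 79 of 89 members, and for 65 the interval lay below 1, whereas 2 had an interval above 1. At least 1.5-fold lower were 7 members, beside 9.31% of all 14358 genes with at least 20 UMIs, and none was 1.5-fold higher, beside 3.06% of all genes. The 7 became 1 among nuclei of at most 1% mitochondrial UMIs and 12 among nuclei of at least 1100 UMIs. The count past 1.5-fold was therefore close to the background, and the members differed instead by a small shift shared by most: their median log2 ratio was -0.32 against -0.03 for all genes. Complex IV stood at 0.760 times WT, complex V at 0.804, complex III at 0.808, complex II at 0.858 and complex I at 0.869.

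The members lowest in EKO included subunits from several complexes. Atp5e was at 40.6, 25.1, 48.1 and 45.9 CPM across WT, EKO, P301S and P301S/EKO. Its EKO over WT ratio was 0.618 (0.525 to 0.725), and EKO alone stood apart from the other libraries. Sdhc, which anchors succinate dehydrogenase in the inner membrane, was at 18.4, 11.8, 19.8 and 15.5 CPM in the same order, a ratio of 0.642 (0.504 to 0.814). Uqcrq, a small subunit of complex III, was at 81.8, 54.4, 88.7 and 84.0 CPM, a ratio of 0.665 (0.595 to 0.742), again with EKO as the low library. Ndufaf6, a complex I assembly factor, was at 9.35, 6.18, 6.95 and 7.13 CPM, highest in WT and lowest in EKO. With 346 UMIs over all barcodes of the 4 libraries, which library stood apart cannot be told. Cox4i2, Ndufa4l2 and Cox6b2, isoform genes with 10, 27 and 32 UMIs in EKO, had ratios of 0.357, 0.436 and 0.511.

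Against this shift, 2 members were slightly higher in EKO. Ndufaf4 was at 116, 129, 111 and 107 CPM across WT, EKO, P301S and P301S/EKO, an EKO over WT ratio of 1.11 (1.03 to 1.21). Ndufa10, an accessory subunit of complex I on the matrix side, was at 146, 162, 142 and 145 CPM, a ratio of 1.105 (1.03 to 1.19). Both were highest in the library in which most other members were lowest.

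The comparison of P301S/EKO with EKO asks what the tau transgene does without Apoe. Of 88 members with at least 20 UMIs, 80 were higher and 63 had an interval above 1. The summed ratio was 1.27 (1.25 to 1.28), and 11 members were at least 1.5-fold higher beside 7.56% of all 14015 genes, with 0 members 1.5-fold lower beside 3.37%. The 11 became 3 among nuclei of at most 1% mitochondrial UMIs and 23 with no mitochondrial limit. The median log2 ratio was 0.33 for the members and 0.01 for all genes. Complex IV was at 1.42 times EKO, complex III at 1.32, complex V at 1.24, complex I at 1.22 and complex II at 1.15, so that the complex lowest in EKO against WT was also the one with the largest ratio here. These comparisons share the EKO library.

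The 11 members were Atp5e, Cox6a1, Uqcr11, Ndufb4, Ndufa1, Cox6b1, Uqcrq, Cox4i1, Cox8a, Cox7a2 and Atp5l, all of them structural subunits of complexes I, III, IV and V. Atp5e, whose 4 values are given above, had the highest ratio, 1.83 (1.55 to 2.16). Cox6a1 was at 254, 185, 227 and 312 CPM across WT, EKO, P301S and P301S/EKO, a ratio of 1.69 (1.59 to 1.79), and P301S/EKO was the highest of the 4 libraries. Uqcr11, the smallest subunit of complex III, was at 89.6, 62.7, 87.0 and 103 CPM and had a ratio of 1.65 (1.48 to 1.83). Cox6b1, by contrast, was at 125, 85.1, 130 and 132 CPM, so that WT, P301S and P301S/EKO lay close together and EKO was low. Ndufaf4 and Ndufa10 were lower in P301S/EKO than in EKO, at 0.830 (0.761 to 0.905) and 0.898 (0.833 to 0.969).

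P301S over WT is the comparison of the transgene with Apoe present. The ratio of the sum was 1.00 (0.992 to 1.01) under CPM scaling and 0.871 under median-of-ratios scaling. The median of all 14736 genes lay at a log2 ratio of 0.21 under CPM, and the members' median of 0.06 was 0.16 below that of all genes. The ratio was above 1 for 49 members and below 1 for 40, and for 63 of 89 the interval held 1. At least 1.5-fold higher were 3 members (Cox6b2, Cox7a1 and Cox6a2), beside 19.8% of all genes, and 1 (Cox7b2) was lower, beside 2.55%. All 4 are isoform genes of complex IV with few UMIs. Among better covered members, Ndufb7, an accessory subunit of complex I, was at 43.4 CPM in WT and 58.0 in P301S, a ratio of 1.34 (1.17 to 1.52), and Uqcrc2, a core protein of complex III, at 62.9 and 49.4 CPM, a ratio of 0.786 (0.692 to 0.891). Sdhd, the other membrane anchor of complex II, had a ratio of 1.28 (1.08 to 1.51) and Ndufa5 of complex I 0.830 (0.740 to 0.929).

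P301S/EKO over P301S asks what Apoe loss does in the presence of the transgene. The summed ratio was 1.04 (1.03 to 1.05) under CPM scaling, 1.20 under median-of-ratios scaling and 0.995 among nuclei with at least 1100 UMIs. The ratio was above 1 for 49 of 89 members and below 1 for 40. The members' median log2 ratio was 0.02 against -0.23 for all 14406 genes, a difference of 0.25. At least 1.5-fold higher was 1 member (Cox7b2), beside 2.36% of genes, and 3 were lower (Cox6b2, Cox7a1 and Cox4i2), beside 22.6%. Cox6a1 was the best covered member with a high ratio, 1.38 (1.30 to 1.46), followed by Ndufa1 at 1.33 and Ndufb4 at 1.29, accessory subunits of the membrane arm of complex I.

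Clusters of nuclei were formed without the members, the mitochondrial genes and the ribosomal protein genes, and were named from marker lists. Classes of nuclei spanned a wider range of member levels than the libraries did within a class. Endothelial-like nuclei were highest, between 14723 CPM in EKO and 16425 CPM in P301S, and astrocyte-like nuclei came next, between 10428 CPM in EKO and 14691 CPM in P301S/EKO. The endothelial-like class was mixed, since its 4 libraries together also held mural, fibroblast and astrocyte markers. CA2 or CA3 neuron-like nuclei were lowest, between 4277 CPM in EKO and 5652 CPM in P301S/EKO, and their range did not reach that of the astrocyte-like nuclei. Among the other neurons, inhibitory neuron-like nuclei ranged from 7858 to 8956 CPM, dentate granule neuron-like nuclei from 6317 to 8254, subicular or cortical excitatory neuron-like nuclei from 5893 to 7852 and CA1 neuron-like nuclei from 5622 to 6873. Microglia-like nuclei ranged from 5401 to 7239 CPM, oligodendrocyte-like nuclei from 5884 to 7567 and oligodendrocyte precursor-like nuclei, in 3 libraries with at least 50 nuclei, from 6919 to 8845. Neighbouring ranges among these last 7 classes overlap, so the order of neighbours is not separated from the spread over libraries. The mitochondrial share took nearly the same order: over the 12 classes of WT, Spearman's rho between member CPM and mitochondrial share was 0.979, with 0.839 in EKO (12 classes), 0.891 in P301S (11) and 0.923 in P301S/EKO (12), as a description of classes that share a library.

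**Figure D1:**
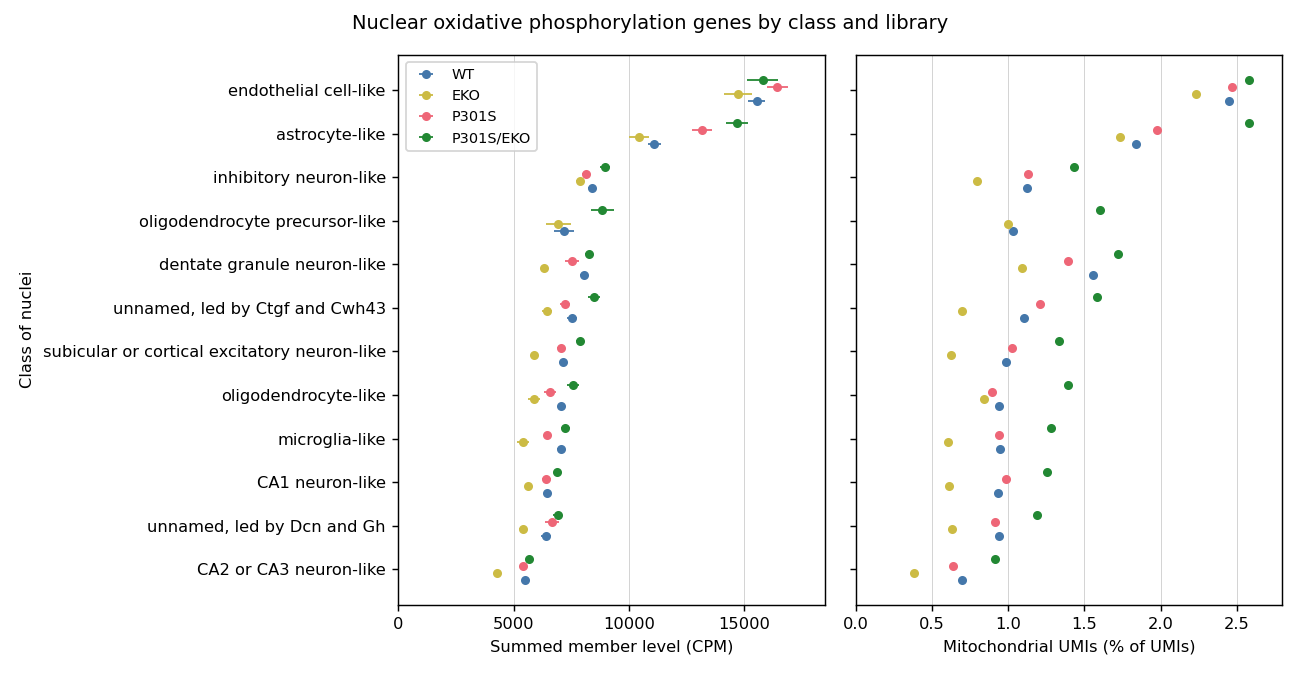
Summed member level in CPM (left, with 95% counting intervals) and mitochondrial UMI share in percent (right) for each class of nuclei, with 1 point per library of at least 50 nuclei. The EKO point is the lowest of its class in 12 of 12 classes for the members, and endothelial- and astrocyte-like nuclei lie to the right in both panels.

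The members that differed most between classes, up to 3 per complex among those with at least 50 UMIs in their highest class, were read from the 4 libraries summed. Sdhc was at 72.9 CPM in endothelial-like and 10.2 CPM in nuclei of CA2 or CA3 neuron type, 7.13 times apart. Atp5e was at 167 and 24.6 CPM, Uqcrb, the ubiquinone-binding protein of complex III, at 303 and 46.0 CPM, and Ndufa7 of complex I at 263 and 41.1 CPM in the same classes. In complex IV these were the isoform genes Ndufa4l2, Cox4i2 and Cox6a2, described further on. Each had 0 UMIs in the small class of choroid plexus epithelium-like nuclei, so their spread has no finite value and ranked first. Endothelial-like nuclei were highest for 12 of the 13 structural members of this list, and inhibitory neuron-like nuclei for Cox6a2. That count depends on the minimum of 50 UMIs. It left out Sdha, Sdhb and Sdhd, highest in choroid plexus epithelium-like nuclei with 23, 15 and 9 UMIs, and members of other complexes highest there. Of the broadly used subunits of complex IV, Cox6b1 reached 359 CPM and Cox6a1 642 CPM in endothelial-like nuclei. The assembly factors had another order: Ndufaf5 (31.4 CPM) and Ndufaf7 (77.9 CPM) were highest in inhibitory neuron-like nuclei.

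EKO had the lowest member level in 12 of 12 classes, and P301S/EKO the highest in 11 of 12. The EKO over WT ratio ranged from 0.767 in microglia-like to 0.964 in oligodendrocyte precursor-like nuclei, and 11 intervals lay below 1. Endothelial-like nuclei (0.948) did not keep this direction: EKO over WT was 1.07 (1.01 to 1.13) there at a clustering resolution of 2 and 1.09 (1.04 to 1.14) with no limit on the mitochondrial share, where oligodendrocyte precursor-like nuclei were at 1.05 (0.960 to 1.14). P301S/EKO over EKO ranged from 1.07 in endothelial-like to 1.41 in astrocyte-like nuclei, with 12 of 12 intervals above 1. In the same classes the mitochondrial ratio ranged from 0.546 to 0.971 and from 1.15 to 2.41, and the ribosomal protein ratio from 0.814 to 1.06 and from 1.14 to 1.44, moving with the members. In the 2 other comparisons the ribosomal protein ratio ran from 1.08 to 1.38 (P301S over WT) and from 0.787 to 1.00 (P301S/EKO over P301S), apart from the members. P301S over WT was above 1 in 3 of 11 classes and below 1 in 8, from 0.917 in microglia-like to 1.19 in astrocyte-like nuclei. P301S/EKO over P301S was above 1 in 10 of 11 classes, with 9 intervals above 1, and the class below 1 was the endothelial-like one (0.961, 0.913 to 1.01). The endothelial-like value was 1.01 at 500 genes or more and 1.02 with doublets kept. The libraries filled some classes from different clusters of the finer resolution. Of the endothelial-like class a fibroblast-like cluster held 28.0%, 52.5%, 40.9% and 50% across WT, EKO, P301S and P301S/EKO, and of the subicular or cortical class 1 cluster held 22.6%, 12.7%, 41.5% and 14.9%. P301S/EKO over P301S was 1.34 (1.20 to 1.498) in that fibroblast-like cluster. In the endothelial-like cluster beside it the ratio was 0.924 (0.871 to 0.979). For P301S/EKO over EKO the same clusters had 1.098 (0.980 to 1.23) and 1.00 (0.937 to 1.08), and both intervals held 1.

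**Figure D2:**
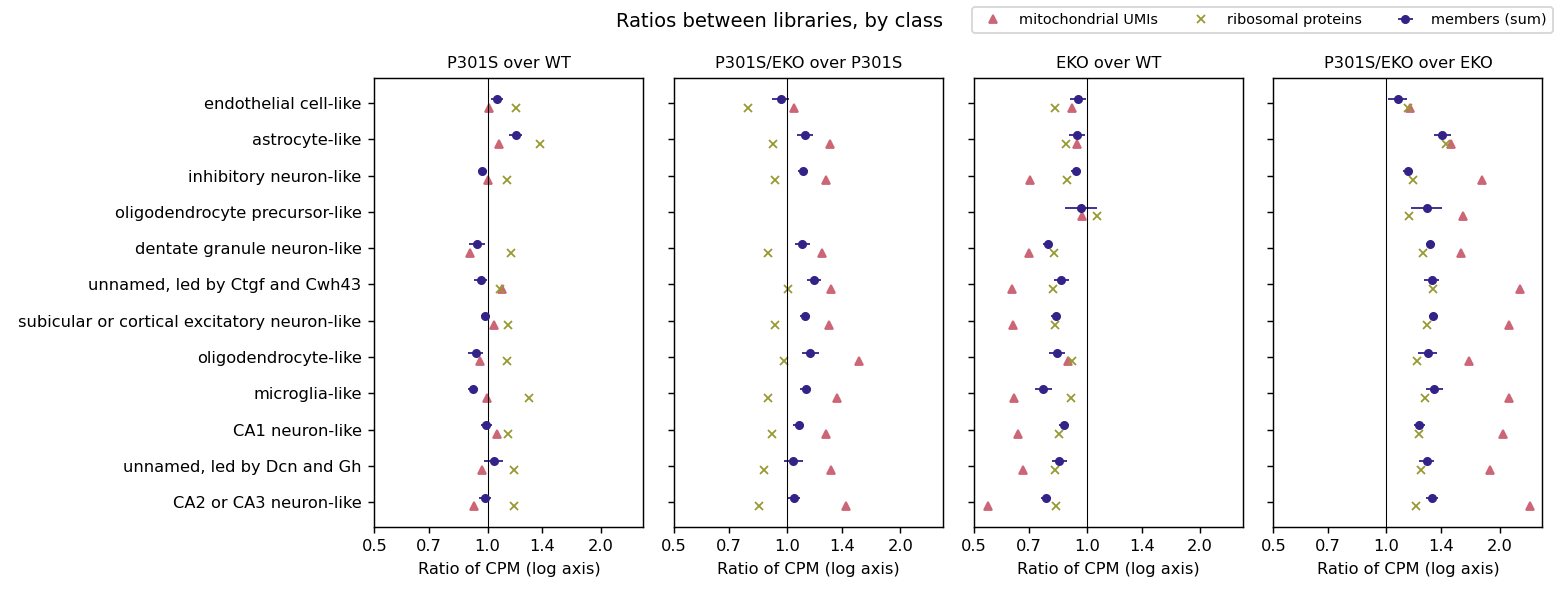
Ratio of CPM between libraries (log axis) in each class for the summed members (circles, with 95% counting intervals), mitochondrial UMIs (triangles) and cytosolic ribosomal protein transcripts (crosses), 1 panel per comparison. Circles lie left of 1 in all 12 classes for EKO over WT and right of 1 in all 12 for P301S/EKO over EKO, and triangles lie further out in most classes.

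In astrocyte-like nuclei, which clear glutamate and supply lactate to neurons, the members were at 11086, 10428, 13166 and 14691 CPM across WT, EKO, P301S and P301S/EKO, so that both transgenic libraries lay above both others. P301S over WT was 1.19 (1.14 to 1.24) under CPM scaling but 1.01 (0.972 to 1.06) under median-of-ratios scaling, and 16 of 79 members were at least 1.5-fold higher and 2 lower, beside 23.4% and 17.8% of all 6369 genes. The share of members higher was thus near the background. P301S/EKO over EKO was 1.41 under CPM and 1.44 under median-of-ratios scaling, and 34 of 73 were higher and 3 lower, beside 18.6% and 15.4% of all 4086 genes. Other quantities moved with it. Malat1, a nuclear long noncoding RNA, took 28.6%, 28.0%, 19.7% and 23.9% of UMIs in the order WT, EKO, P301S, P301S/EKO, neuronal transcripts 1.69%, 0.646%, 0.875% and 0.731%, and the mitochondrial share was 1.84%, 1.73%, 1.98% and 2.58%. Scaling without Malat1 gave P301S over WT of 1.06 (1.01 to 1.101) and P301S/EKO over EKO of 1.33 (1.27 to 1.41), and leaving out nuclei rich in neuronal transcripts 1.13 (1.08 to 1.18) and 1.44 (1.37 to 1.52). No mitochondrial bin held 50 astrocyte-like nuclei in both P301S and WT, so the part of that share in P301S over WT was not tested.

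The members at least 1.5-fold higher with the transgene in both backgrounds of astrocyte-like nuclei came from complexes I, III, IV and V. Ndufc1, an accessory subunit of complex I, was at 60.6, 59.1, 172 and 103 CPM across WT, EKO, P301S and P301S/EKO. Its ratios were 2.83 (1.77 to 4.58) and 1.75 (0.868 to 3.71), with 13 UMIs in EKO. Ndufv3, of the NADH-oxidising module, was at 49.6, 36.4, 103 and 99.5 CPM from 27, 8, 27 and 25 UMIs. Its ratios were 2.08 (1.17 to 3.68) and 2.73 (1.20 to 7.01), wide intervals that both lay above 1. Atp5c1, the central shaft of ATP synthase, was at 108, 63.6, 176 and 171 CPM, with ratios of 1.62 and 2.69. Cox5a, a matrix-side subunit of complex IV, was at 141, 114, 221 and 191 CPM, with ratios of 1.57 and 1.68. Uqcrq (1.64, 1.11 to 2.43, and 1.90, 1.06 to 3.52) and Uqcrc2 (1.70, 1.09 to 2.63, and 1.54, 0.825 to 2.99) followed. Ndufb7 (1.61, 0.974 to 2.64, and 2.63, 1.14 to 6.76), with 8 UMIs in EKO, completed the list. Over the alternatives, P301S over WT fell to 1.30 for Atp5c1, 1.34 for Cox5a, 1.38 for Ndufb7, 1.30 for Uqcrc2 and 1.26 for Uqcrq. That ratio stayed past 1.5-fold for Ndufc1 and Ndufv3. The second ratio, P301S/EKO over EKO, fell to 1.20 for Cox5a, 1.496 for Ndufb7, 1.47 for Ndufc1, 1.04 for Uqcrc2 and 1.25 for Uqcrq. It stayed past 1.5-fold for Atp5c1 and Ndufv3, so only Ndufv3 kept both. How many of all genes passed 1.5-fold in both backgrounds was not counted. Ndufa4 went against it in P301S over WT, at 0.624 (0.431 to 0.886).

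Microglia-like nuclei, the brain's resident macrophages, had the lowest EKO over WT ratio. Their members were at 7046, 5401, 6458 and 7239 CPM across WT, EKO, P301S and P301S/EKO, and 30 of 79 were at least 1.5-fold lower in EKO than in WT, beside 18.1% of all 7985 genes. In P301S/EKO over EKO 30 of 77 were higher, beside 15% of all 7395 genes. Atp5o, which joins the stalk of ATP synthase to its head, was at 89.1 CPM in WT, 30.2 in EKO and 81.5 in P301S/EKO, ratios of 0.339 (0.157 to 0.653) and 2.70 (1.38 to 5.89), with 10 UMIs in EKO. Cox6a1 was at 133 CPM in EKO and 315 in P301S/EKO, a ratio of 2.37 (1.72 to 3.34). In P301S over WT, Atp5b, the catalytic subunit of ATP synthase, was at 404 and 266 CPM, a ratio of 0.658 (0.569 to 0.760), and Ndufv1, which binds NADH, at 103 and 64.3 CPM, a ratio of 0.622 (0.462 to 0.835). The EKO microglia-like class was the smallest of the 4, with 144 nuclei, and microglial markers summed to 3457 CPM in WT against 6765, 5970 and 7406 in EKO, P301S and P301S/EKO.

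Among neurons, the dentate granule neuron-like nuclei had summed ratios of 0.787 for EKO over WT and 1.31 for P301S/EKO over EKO. At the finer resolution their libraries lay in different clusters: across WT, EKO, P301S and P301S/EKO, cluster 12 held 16.2%, 1.48%, 69.6% and 27.7% of the class, and cluster 13 held 59.4%, 77.5%, 18.4% and 51.9%. Within cluster 13 the 2 ratios were 0.823 (0.793 to 0.853) and 1.26 (1.21 to 1.303), and within cluster 8 they were 0.798 (0.753 to 0.845) and 1.24 (1.17 to 1.32). The values of single members below are for the whole class, with 158 nuclei in P301S. Atp5e was there at 41.0, 22.0, 33.5 and 65.4 CPM across WT, EKO, P301S and P301S/EKO, and P301S/EKO was 2.98 times EKO (1.99 to 4.54). Cox5a was at 128 CPM in WT and 65.3 in EKO, a ratio of 0.511 (0.394 to 0.662). Ndufa7 and Cox6b1 were 2.07 (1.503 to 2.87) and 2.01 (1.59 to 2.56) times higher in P301S/EKO than in EKO. Ndufaf4 and Ndufa10 went the other way, at 0.758 (0.601 to 0.951) and 0.781 (0.633 to 0.959), as in all kept nuclei. Ndufa11 was higher with the transgene in both backgrounds, with ratios of 1.66 (1.04 to 2.597) and 1.81 (1.34 to 2.47). Over the alternatives these fell as low as 1.25 and 1.06. Ndufs4, a complex I subunit whose mutation causes Leigh syndrome, was at 50.3, 28.5, 43.6 and 28.9 CPM across WT, EKO, P301S and P301S/EKO, so that the 2 libraries without Apoe were the low ones (0.566 and 0.663, the latter from 0.341 to 1.37). In nuclei of 0.5 to 1% mitochondrial UMIs alone, EKO over WT was 1.23 (0.530 to 3.00) for Ndufs4.

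In neuron-like nuclei of CA2 or CA3, 25 of 81 members were at least 1.5-fold lower in EKO than in WT, beside 10.2% of all 9265 genes, and 25 of 80 were higher in P301S/EKO than in EKO, beside 8.63% of all 8832 genes. Ndufb4 was at 13.4 CPM in EKO and 39.2 in P301S/EKO, 2.92 times higher (1.68 to 5.30). Cox7b, a subunit of complex IV, was the member of this class past 1.5-fold in the same direction in both comparisons of Apoe loss. It was at 83.3, 49.3, 88.8 and 53.6 CPM across WT, EKO, P301S and P301S/EKO, ratios of 0.591 (0.434 to 0.799) and 0.603 (0.426 to 0.854). The libraries with Apoe were high, those without were low, and neither interval held 1. Cox7b was named because it passed 1.5-fold in both, and how many of all genes did so was not counted. Both of its ratios rose as high as 0.696 over the alternatives, less than 1.5-fold. Ndufa6 of complex I was past 1.5-fold higher with the transgene in both backgrounds of this class. Its ratios were 1.52 (1.02 to 2.23) and 1.64 (1.07 to 2.54), and over the alternatives they fell as low as 1.27 and 1.496. CA1 neuron-like nuclei gave fewer members past 1.5-fold: Ndufa8 of complex I was at 55.8 CPM in WT, 28.2 in EKO and 47.2 in P301S/EKO, ratios of 0.505 (0.331 to 0.754) and 1.67 (1.08 to 2.65), and Uqcr11 was 1.76 times higher (1.29 to 2.41) in P301S/EKO than in EKO.

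Some isoform genes of complex IV had most of their signal in 1 class. Ndufa4l2, known as a hypoxia-induced paralogue of Ndufa4, was at 121 CPM in endothelial-like nuclei (148, 94.7, 85.3 and 139 CPM in WT, EKO, P301S and P301S/EKO, from 67, 15, 25 and 19 UMIs) and at most 7.04 CPM in any other class. Cox4i2, the isoform that replaces Cox4i1 in lung and hypoxic cells, was at 53.7 CPM there (59.5, 50.5, 44.4 and 58.4 CPM) and at most 2.30 CPM elsewhere. Within the class Ndufa4l2 was lower in P301S than in WT, at 0.578 (0.350 to 0.927), and had the lowest ratio of the members there whose interval left out 1. The interval held 1 in the 3 other comparisons of Ndufa4l2 and in the 3 of Cox4i2 that had at least 20 UMIs. EKO over WT within the class was 0.641 (0.340 to 1.13) for Ndufa4l2 and 0.849 (0.333 to 1.92) for Cox4i2, against 0.436 and 0.357 over all kept nuclei. Mural cell markers, which belong to pericytes and smooth muscle, summed to between 4048 and 5472 CPM in this class and endothelial markers to between 7292 and 12599 CPM.

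Cox6a2, the heart and muscle isoform, was highest in inhibitory neuron-like nuclei, at 16.2, 40.6, 13.3 and 21.1 CPM across WT, EKO, P301S and P301S/EKO, from 17, 38, 16 and 18 UMIs. Within them, Pvalb interneuron-like nuclei had 24.9, 79.3, 27.8 and 52.6 CPM of Cox6a2, from 7, 23, 9 and 13 UMIs. The libraries without Apoe were higher, at ratios of 2.51 (1.38 to 4.75) and 1.59 (0.764 to 3.32) in inhibitory neuron-like nuclei, and the second interval holds 1. The other isoform pairs were uneven too: over all kept nuclei Cox7a1, of heart and muscle, was at 1.57, 1.35, 2.94 and 1.11 CPM in the order above and Cox7a2 at 99.8, 73.2, 91.4 and 110 CPM, while Cox7b2, of testis, was at 3.15, 2.25, 1.47 and 2.78 CPM and Cox7b at 103, 82.4, 117 and 89.5 CPM. Atp5g1, Atp5g2 and Atp5g3, which encode the same mature c subunit of the ATP synthase rotor, were each lowest in EKO, at 150, 32.7 and 47.8 CPM, against 171, 46.0 and 60.5 CPM in WT.

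Cox6b2, known as the testis isoform, had the largest P301S over WT ratio of any member in all kept nuclei. In all kept nuclei it was at 7.04, 3.60, 20.4 and 4.79 CPM across WT, EKO, P301S and P301S/EKO, so that P301S stood alone: P301S over WT was 2.91 (2.21 to 3.83) and P301S/EKO over P301S 0.234 (0.163 to 0.330). EKO over WT was 0.511 (0.329 to 0.776), but 1.23 (0.550 to 2.61) in nuclei of 0.5 to 1% mitochondrial UMIs. In astrocyte-like nuclei the values were 38.6, 27.3, 195 and 39.8 CPM from 21, 6, 51 and 10 UMIs, with P301S over WT at 5.05 (2.98 to 8.83). In microglia-like nuclei they were 11.3, 12.1, 23.8 and 3.70 CPM. Choroid plexus epithelium-like nuclei, of which there were 44 in P301S, 11 in WT, 17 in P301S/EKO and 0 in EKO, held 223 CPM of Cox6b2 in P301S. Ttr, the choroid plexus transcript, was at 484, 9.89, 1803 and 589 CPM over all kept nuclei and at 386, 0, 1382 and 553 CPM in astrocyte-like nuclei, and choroid plexus markers there summed to 527, 136, 1607 and 692 CPM. Per 100 Ttr UMIs, astrocyte-like nuclei of P301S held 14.1 Cox6b2 UMIs and choroid plexus nuclei of P301S 0.306. The second value rests on 18 Cox6b2 UMIs in a class below the minimum of 50 nuclei, and the part of choroid plexus RNA in the Cox6b2 values was not tested.

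**Figure D3:**
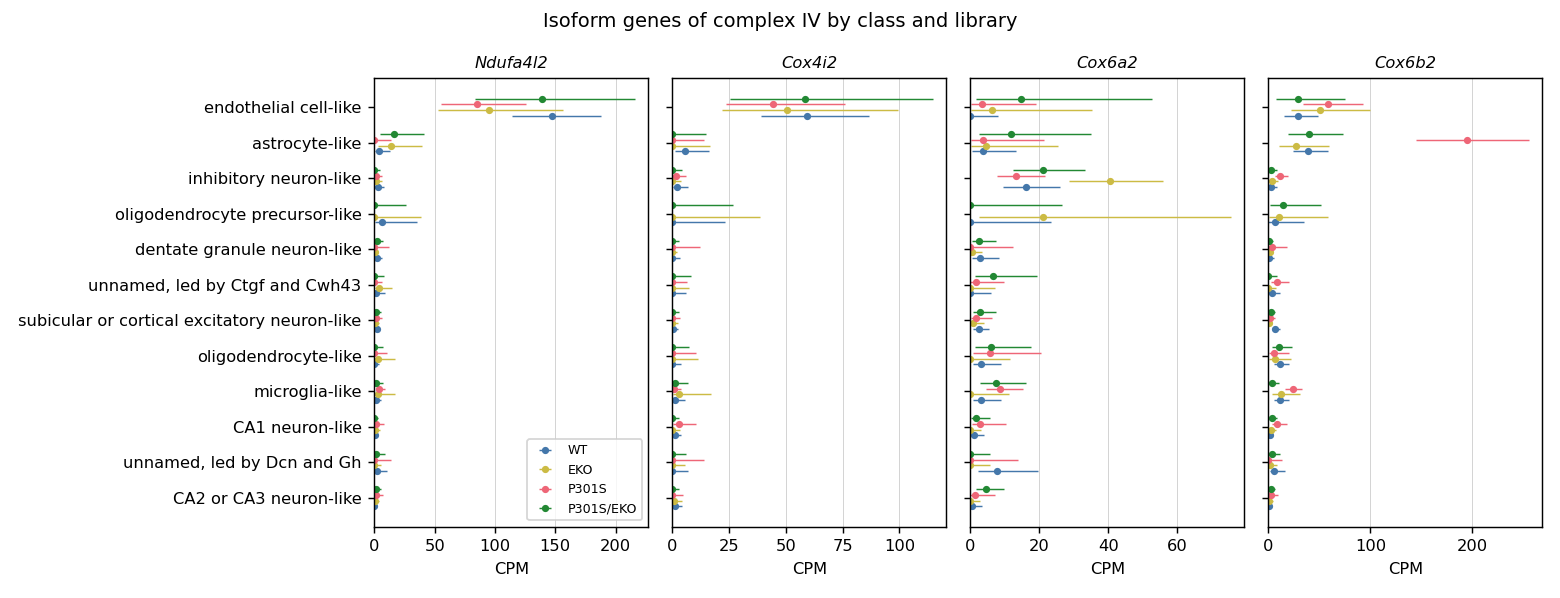
CPM of 4 isoform genes of complex IV (x axes) in each class of nuclei with at least 50 nuclei, 1 point per library with its 95% counting interval. Ndufa4l2 and Cox4i2 stand out in endothelial-like nuclei in each library, Cox6a2 is highest in inhibitory neuron-like nuclei of EKO, and Cox6b2 in astrocyte-like nuclei of P301S at 195 CPM.

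The member level followed the mitochondrial share of a barcode. When all barcodes were grouped by that share, the members' CPM of non-mitochondrial UMIs was 5531 under 0.5%, 6657 from 0.5 to 1%, 8013 from 1 to 2%, 11533 from 2 to 5% and 28191 above 5%, with the 4 libraries summed. The same order held in each library: from under 0.5% to above 5% the level went from 5764 to 29054 in WT, 5194 to 28928 in EKO, 5944 to 23303 in P301S and 5741 to 28914 in P301S/EKO. Complex IV had the steepest course, from 1343 to 11431, and complex II the flattest, from 194 to 524. Along the same bins cytosolic ribosomal protein transcripts went from 6792 to 52782 and Malat1 from 351518 to 144025 on that scale. Barcodes of high mitochondrial share thus held more of both kinds of protein-coding housekeeping transcript and less of a nuclear RNA. These bins pool all classes, and neuronal transcripts went from 51131 to 18041 along them. From under 0.5% to 2 to 5%, the member level in WT went from 5622 to 9578 in CA1 neuron-like nuclei. In all kept WT nuclei it went from 5757 to 12357. Barcodes above 5% were not assigned to these classes, and the part of class mix in the course was not tested.

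**Figure D4:**
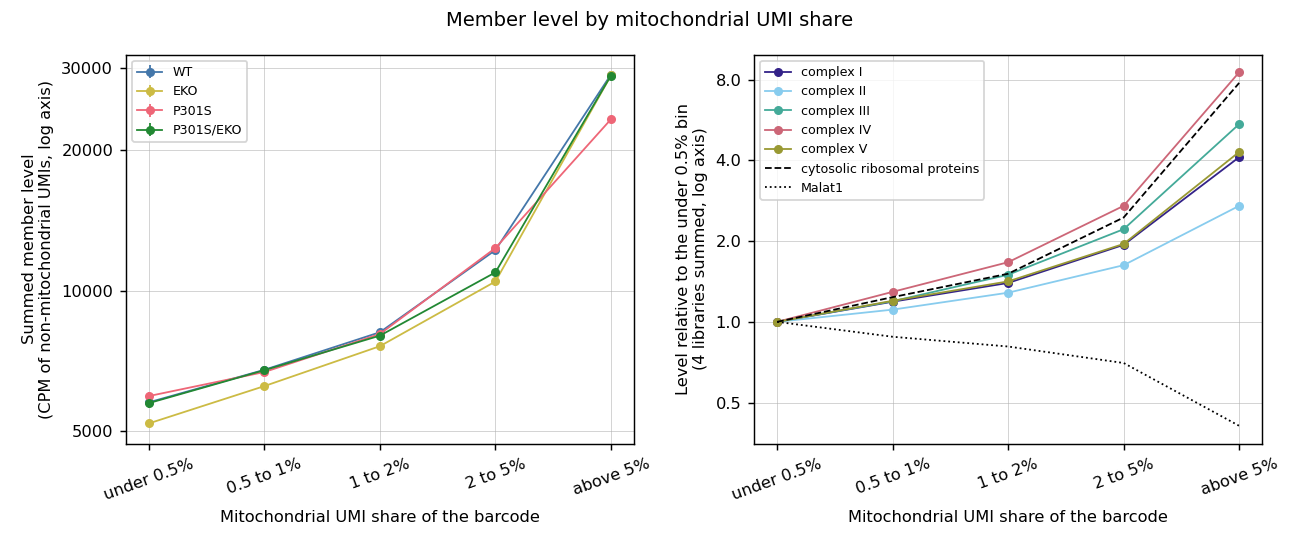
Left, summed member CPM of non-mitochondrial UMIs (log axis) by mitochondrial UMI share of the barcode, 1 line per library, with 95% counting intervals smaller than most points. Right, each complex, ribosomal protein transcripts and Malat1 relative to the lowest bin (log axis, 4 libraries summed): all complexes climb, complex IV most, while Malat1 declines.

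Of the 89 members, 86 were higher above 5% than under 0.5% and 77 at least 2-fold, with a median ratio of 4.50. Atp5e (14.2, 12.4 to 16.3), Ndufa4l2 (15.5, 7.78 to 34.4) and Cox4i2 (13.1, 5.93 to 32.8) had the largest ratios. Ndufaf4 was lower above 5%, at 0.562 (0.490 to 0.644), as was Atp5sl at 0.770 (0.635 to 0.927), and Ndufaf7 stood at 0.900 (0.763 to 1.06). Members with a short gene body had larger ratios: the 23 shortest, of 0.953 to 4.27 kb, had a median of 6.47 and the 23 longest, of 13.0 to 156 kb, a median of 2.98 (Spearman's rho -0.436 over 89 members).

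This property of each member ran parallel to its ratio between libraries. Taken from the WT library, which is not in the comparison, the log2 ratio of high over low mitochondrial share had Pearson's r of 0.729 and Spearman's rho of 0.718 with the log2 P301S/EKO over EKO ratio over 85 members. Taken from P301S, it had r of -0.655 and rho of -0.648 with EKO over WT over 81 members. For P301S over WT, with the bins of EKO, r was 0.000 and rho -0.038 over 85 members, and for P301S/EKO over P301S, with the bins of WT, r was 0.035 and rho 0.135. These are descriptions across genes that share libraries and nuclei, not tests. Ndufaf4, highest in EKO and lower in barcodes rich in mitochondrial UMIs, sits at one end of this relation and Atp5e at the other.

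**Figure D5:**
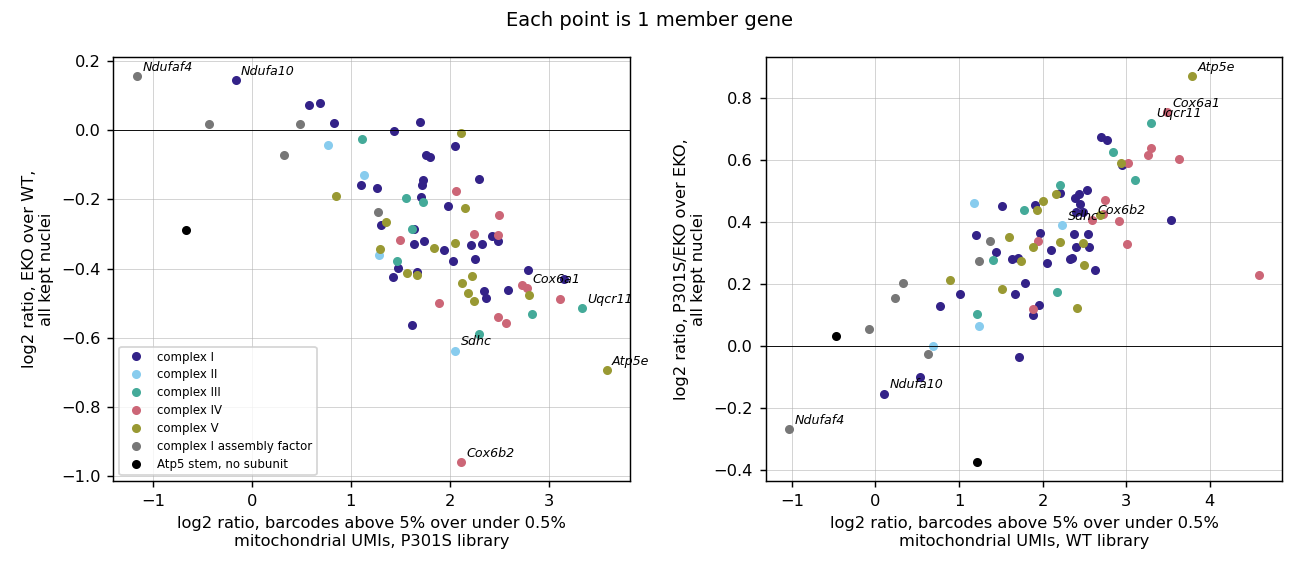
Each point is 1 member, with its log2 ratio between barcodes above 5% and under 0.5% mitochondrial UMIs in a library outside the comparison (x axis) and its log2 ratio between 2 libraries over all kept nuclei (y axis). Points slope down for EKO over WT (left, r -0.655) and up for P301S/EKO over EKO (right, r 0.729), with Ndufaf4 and Atp5e at opposite ends.

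The kept nuclei were spread unequally over these bins. Under 0.5% mitochondrial UMIs lay 22.9% of WT, 48.5% of EKO, 20.8% of P301S and 9.87% of P301S/EKO nuclei, and from 2 to 5% lay 15.3%, 10.8%, 15.0% and 24.9%. Within a bin EKO lay closer to WT and to P301S/EKO than it did over all kept nuclei. EKO over WT was 0.902, 0.921, 0.935 and 0.849 in the 4 bins up to 5%, P301S/EKO over EKO 1.102, 1.09, 1.05 and 1.05, P301S over WT 1.03, 0.991, 0.987 and 0.997, and P301S/EKO over P301S 0.967, 1.01, 0.992 and 0.894. In nuclei of 0.5 to 1%, EKO was lower than WT in 6 of 7 classes with at least 50 such nuclei in both libraries, from 0.824 in dentate granule neuron-like to 1.01 in CA1 neuron-like nuclei, and P301S/EKO was higher than EKO in 7 of 7, from 1.01 to 1.26. In the other bins P301S/EKO over EKO was above 1 in each class measured, from 1.01 to 1.28. EKO over WT was below 1 in 7 of 8 classes under 0.5%, in 5 of 6 from 1 to 2% and in 3 of 3 from 2 to 5%. The exceptions were inhibitory neuron-like nuclei under 0.5%, at 1.02 (0.963 to 1.08), and astrocyte-like nuclei from 1 to 2%, at 1.09 (1.003 to 1.18), whose interval lay above 1. The EKO over WT interval lay below 1 in 6 of 8 classes under 0.5%, 4 of 7 from 0.5 to 1%, 2 of 6 from 1 to 2% and 2 of 3 from 2 to 5%. Among nuclei of like mitochondrial share the direction of EKO over WT was thus kept in most classes and not in all, and several intervals held 1.

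Other genes of the pathway, from lists outside the rule, differed from the members. The 13 mitochondrial DNA-encoded subunits summed to 0.701 of WT in EKO, with 7 at least 1.5-fold lower, and to 1.80 of EKO in P301S/EKO, with 13 of 13 higher. The 43 assembly factors outside the rule, such as Surf1 and the Sco and Coa genes for complex IV, stood at 1.04 and 0.983, and citrate cycle and pyruvate dehydrogenase genes, which feed NADH to complex I, at 0.931 and 1.02. Regulators of mitochondrial biogenesis, such as Ppargc1a, Nrf1 and Tfam, stood at 1.02 and 0.982, inner membrane carriers at 0.910 and 1.05 and mitochondrial ribosomal proteins at 0.9501 and 1.06. Cytosolic ribosomal proteins, which have no part in the pathway, stood at 0.815 and 1.23, close to the members' 0.824 and 1.27.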

How the data were processed

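The data are droplet 3′ single-nucleus UMI counts of 27998 genes in 4 libraries. Per the labels' protocols, nuclei came from flash-frozen hippocampi by detergent lysis and a sucrose cushion. The deposited matrices hold raw counts per gene and barcode. Cell Ranger, Seurat and mm10 are named in the submitters' processing notes, and tool versions and the handling of introns were not given in the sources used. The barcodes total between 8369762 and 14251675 UMIs per library.

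Kept barcodes had 200 genes or more and a mitochondrial share of 5% or less. Doublets were scored against simulated pairs; the caller's own threshold marked at most 1 barcode per library and so had not worked, and the highest scoring share at 0.8% per 1000 barcodes was removed instead (242, 238, 69 and 249 nuclei). Clusters (2000 variable genes, 30 components, Leiden resolution 1, scanpy 1.11.5) left out the members, mitochondrial, ribosomal and sex-linked genes. A cluster was named from marker lists where at least 3 markers of a list were raised. At least 1 marker of that list also had to stand among the 10 leading genes, and no other list could have more there. The unnamed class led by Ctgf and Cwh43 had 12 of 16 subicular or cortical markers raised but none among its leading genes. UMIs were summed per class and library and divided by the class total to give CPM; a class needed 50 nuclei in a library, and a ratio of a gene 20 UMIs over both libraries. Intervals are exact Poisson (levels) and exact conditional binomial (ratios) at 95% and cover counting error only. Their code was checked on simulated Poisson counts at whole-library depth. The intervals assume that same model, so the check does not speak to spread between nuclei or to small classes. Medians of log2 ratios use a prior of 0.5 UMI.

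Named genes were the label checks, up to 3 highest and 3 lowest members per comparison and class whose interval left out 1, members past 1.5-fold in 1 direction for both contrasts of the transgene or of Apoe loss, isoform families, the 3 members per complex that varied most between classes (at least 50 UMIs in the highest class), and the extremes by mitochondrial share. The members, gene lists and markers were chosen with earlier results of these data known. Alternatives covered scaling, filters, doublets, clustering and member choice, and 2 more were chosen after seeing the data. Promoters are from RefSeq, gene spans from the GENCODE annotation of GRCm38.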

Additional observations from a re-analysis of the deposited data

Results flagged for a closer look

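In 9 of 11 classes of nuclei the summed members differed in opposite directions for loss of Apoe without and with the tau transgene, with both counting intervals leaving out 1. In 4 of them both ratios were at least 1.1-fold from 1. In microglia-like nuclei EKO over WT was 0.767 and P301S/EKO over P301S 1.12. In oligodendrocyte-like nuclei the ratios were 0.833 and 1.15, in subicular or cortical excitatory neuron-like nuclei 0.827 and 1.12, and in the unnamed class led by Ctgf and Cwh43 0.855 and 1.18. The finer clusters of the subicular or cortical class differed. Cluster 9 did not have opposite directions, at 0.808 and 0.9485 (0.888 to 1.01). Cluster 7 (0.905 and 1.18) and cluster 10 (0.833 and 1.17) had them. The 5 other classes were CA1 neuron-like (0.871 and 1.07), CA2 or CA3 neuron-like (0.779 and 1.04), dentate granule neuron-like (0.787 and 1.097), inhibitory neuron-like (0.937 and 1.101) and astrocyte-like nuclei (0.941 and 1.12). At 0.5 to 1% mitochondrial UMIs, EKO over WT was 1.01 in CA1 neuron-like nuclei. P301S/EKO over P301S was 0.959 in CA2 or CA3 neuron-like nuclei there, and 0.983 at 1% or less. These intervals held 1, and neither class kept opposite directions. At 0.5 to 1% the dentate granule (0.824 and 1.12) and subicular or cortical classes (0.857 and 1.055) kept them, with intervals leaving out 1. The inhibitory (0.993 and 1.07) and Ctgf and Cwh43 classes (0.952 and 1.097) kept them in the values only. Their EKO over WT intervals, 0.938 to 1.05 and 0.877 to 1.03, held 1. Microglia-, oligodendrocyte- and astrocyte-like nuclei of EKO numbered 42, 47 and 47 in this bin, under the minimum of 50, so EKO over WT was not measured there. With 1 library per genotype the difference between the pairs was not tested. In the first 4 classes the ratio of mitochondrial UMIs ranged from 0.634 to 0.892 for EKO over WT and from 1.29 to 1.55 for P301S/EKO over P301S, and their part in the member values was not tested. For the transgene, the ratio was below 1 with Apoe and above 1 without it, both intervals leaving out 1, in 5 of 11 classes, none by 1.1-fold both ways.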

How the results depend on the processing

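No paired analysis was possible because each genotype has 1 library and the labels give no replicate numbers, and for the same reason no replicate could be left out. Over the alternatives, 127 values for all kept nuclei stayed within the counting interval or within 1.5 times the count and 45 moved further. Of class ratios 423 stayed and 109 moved. Of values of single members 737 stayed within the interval, 7 moved further, and 2 turned direction from a ratio of at least 1.5-fold. Counted from any size, 31 of 746 values of single members lay on the other side of 1 from the main value, 2 of them where the main interval left out 1, and 16 of 532 class ratios, 10 of them where it did. The widest of the 31 with a main interval around 1 were Cox6b2 for P301S/EKO over EKO, from 1.33 to 0.536 in nuclei of 0.5 to 1% mitochondrial UMIs, and Ndufs4 in dentate granule neuron-like nuclei for the same comparison, from 1.01 to 0.532 there. The 10 class ratios were those of EKO over WT in CA1 neuron-like and endothelial-like nuclei, of P301S over WT in endothelial-like and inhibitory neuron-like nuclei, and of P301S/EKO over P301S in CA2 or CA3 neuron-like nuclei.

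P301S over WT was 0.871 with median-of-ratios scaling (4 members at least 1.5-fold lower), 0.930 with no mitochondrial limit (2 lower), 1.03 without nuclei rich in neuronal transcripts outside neurons, and with a minimum of 50 UMIs 0 members were lower. P301S/EKO over P301S was 1.20 with median-of-ratios scaling (3 members higher), 1.02 at 500 genes or more, 1.01 at 1% mitochondrial UMIs or less, 1.23 with no mitochondrial limit (6 higher), 1.06 with equal weight per nucleus, 0.995 at 1100 UMIs or more, 1.01 without the neuron-rich nuclei, and at 50 UMIs 0 members were higher and 1 lower. EKO over WT was 0.813 at 500 genes or more, 0.869 at 1% mitochondrial UMIs or less (1 member lower), 0.840 with equal weight and 0.804 at 1100 UMIs or more (12 lower). In it 1 member was higher with median-of-ratios scaling, at 500 genes, at 1% mitochondrial UMIs and without the neuron-rich nuclei. P301S/EKO over EKO was 1.17 at 1% mitochondrial UMIs or less (3 members higher, 1 lower), 1.37 with no mitochondrial limit (23 higher) and 1.28 with structural subunits alone.

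Of the alternatives chosen after seeing the data, nuclei of 0.5 to 1% mitochondrial UMIs gave 0.991 for P301S over WT, 1.01 for P301S/EKO over P301S (0 members higher), 0.921 for EKO over WT (1 higher, 3 lower) and 1.09 for P301S/EKO over EKO (4 higher, 2 lower). There Cox6b2 in all kept nuclei was at 1.23 (0.550 to 2.61) and Ndufs4 in dentate granule neuron-like nuclei at 1.23 (0.530 to 3.00) for EKO over WT, the opposite direction to the main values. These nuclei are fewer. Scaling without Malat1 gave 0.932 for P301S over WT (2 lower) and 1.12 for P301S/EKO over P301S; otherwise the cause of a change was not tested. Clustering P301S alone gave no astrocyte-, oligodendrocyte- or oligodendrocyte precursor-like cluster. In the smaller classes the depth leaves wide counting intervals for single members.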
